A study of Mus musculus with 9 samples.

Results

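The CD300 receptors of the mouse are described here from the 6 gene rows named Cd300a, Cd300lf, Cd300lb, Cd300c2, Cd300ld and Cd300lg, out of 26770 gene rows in all. They were taken by gene name, and all 6 passed the filter on low counts. RNA was sequenced from spleen-derived monocytes of wild-type (WT) mice in 9 libraries, 3 in each of 3 groups. Untreated cells received the solvent DMSO, at dilutions of 1 in 1000, 1001 and 1002 on the single labels. The LPS group received lipopolysaccharide, the bacterial outer-membrane component that Toll-like receptor 4 detects, at a low dose of 40 ng/ml for 5 hours. The octanal group was primed with low-dose LPS and then given octanal, an aldehyde known as a ligand of the olfactory receptor Olfr2, at 20 µM for 18, 19 and 20 hours on the single labels. All cells shared the wild-type genotype and the spleen as source. The labels name DMSO for untreated cells only and do not say that LPS cells were cultured as long as octanal cells. For the octanal group they give neither the LPS dose in ng/ml nor the hours of LPS. Octanal, LPS exposure, culture time and solvent therefore cannot be told apart in the comparison of these groups. Whether the replicates are separate animals or cultures is not stated, and p-values therefore measure only the spread between these samples, which may be technical.

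CD300 proteins are paired receptors of the immunoglobulin superfamily on myeloid cells: closely related outer domains, many of which bind lipids of dying cells, are joined to either inhibitory or activating signalling tails. The inhibitory members, Cd300a and Cd300lf, carry tyrosine motifs (ITIMs) that recruit the phosphatases SHP-1 and SHP-2, while the activating members, Cd300lb, Cd300c2 and Cd300ld, have short tails and signal through adaptor proteins with activating motifs (ITAMs), namely DAP12 and the Fc receptor gamma chain. Cd300a is known as a receptor for phosphatidylserine and phosphatidylethanolamine, Cd300lf for ceramide and other lipids and as the entry receptor of murine norovirus, and Cd300lb has been described as binding LPS and joining the Toll-like receptor 4 complex. Cd300lg, also called nepmucin, is an adhesion receptor of endothelial cells.

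On build GRCm38 (GENCODE M21), 5 of the 6 genes lie in the CD300 cluster of chromosome 11, where 11 family genes of the table span 244 kb and 10 of them are on the minus strand. Cd300a, on the plus strand, is at chr11:114890041-114904654. Cd300lb is at chr11:114922781-114934386, Cd300ld at chr11:114982274-114989922, Cd300c2 at chr11:114996721-115001880 and Cd300lf at chr11:115116214-115133992, all on the minus strand. Cd300lg is outside the cluster, on the plus strand at chr11:102041509-102055620. Cd300lf lies within Rab37, a gene of the opposite strand, and Cd300lb overlaps the pseudogene Gm11699, with 0 exon bases shared in either case. The table of promoters held entries for 5 of the 6 members. Their last 150 bases before the RefSeq start (GRCm38.p6, 5′ to 3′ on the gene's own strand) are shown because these neighbouring genes carry the results below. Capitals mark matches of GGAAGT, a core bound by ETS factors such as PU.1, and of TATAAA, the TATA box, on either strand. The windows are chr11:114889891-114890040 for Cd300a, chr11:115133993-115134142 for Cd300lf, chr11:114934372-114934521 for Cd300lb, chr11:115001881-115002030 for Cd300c2 and chr11:114989887-114990036 for Cd300ld.
Cd300a: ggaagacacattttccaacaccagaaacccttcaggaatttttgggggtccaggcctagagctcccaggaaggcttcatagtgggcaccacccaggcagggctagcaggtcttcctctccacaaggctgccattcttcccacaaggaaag
Cd300lf: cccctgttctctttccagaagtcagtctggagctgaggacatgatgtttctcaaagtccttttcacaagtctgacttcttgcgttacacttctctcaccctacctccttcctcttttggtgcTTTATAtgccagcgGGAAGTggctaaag
Cd300lb: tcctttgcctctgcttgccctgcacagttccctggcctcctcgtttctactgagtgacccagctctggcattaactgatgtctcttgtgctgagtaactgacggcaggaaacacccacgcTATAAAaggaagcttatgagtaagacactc
Cd300c2: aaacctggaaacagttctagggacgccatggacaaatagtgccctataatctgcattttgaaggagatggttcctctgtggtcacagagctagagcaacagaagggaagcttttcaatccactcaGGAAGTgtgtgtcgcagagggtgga
Cd300ld: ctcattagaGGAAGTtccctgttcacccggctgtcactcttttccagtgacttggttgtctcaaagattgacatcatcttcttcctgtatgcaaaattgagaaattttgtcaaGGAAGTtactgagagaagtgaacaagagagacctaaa

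Within 250 bases before the start, on both strands, GGAAGT was found in 4 of the 5 members (Cd300lf, Cd300lb, Cd300c2 and Cd300ld) and in 19.7% of all 32851 promoters. This motif was added after the sequences had been read. In Cd300lb the GGAAGT match lay on the opposite strand, 180 to 175 bases before the start and so outside the printed stretch. The longer AGGAAGT, which contains it, was in Cd300c2 and Cd300ld and in 7.69% of promoters. A TATAAA match lay 30 to 25 bases before the start of Cd300lb, on the gene's own strand. That of Cd300lf lay 28 to 23 bases before the start, on the opposite strand. Of all promoters, 12.4% held a TATAAA match anywhere in the window. TTGCNNAA, a C/EBP core, was in Cd300a and in 9.56% of promoters, at 214 to 207 bases before the start and so outside the printed stretch. The GATA factor core, written AGATAA, was in Cd300c2 and in 9.99% of promoters. TGANTCA (AP-1), the interferon response element and the kappaB motif were in 0 of the 5, against 6.75%, 2.98% and 0.356% of promoters. Between the 5 members, 20 to 28.4% of the 250 positions, set side by side without gaps, carried the same base. Such a count misses likeness at shifted positions, so it cannot show whether the promoters are alike.

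Library totals were 29594291 to 38388421 counts. Chi-square over degrees of freedom was 42.9 to 142 between replicates, more than counting error gives. The labelled cell type was checked against marker genes. The 14 classical monocyte markers were unevenly present. Lyz2, Itgam and Csf1r were read in every group, at a mean of 1430, 560 and 231 CPM (counts scaled to library size) in the LPS group where they were lowest. Other defining markers differed by group. Ly6c2 had means of 140 ± 125, 2.95 ± 4.29 and 0.875 ± 0.217 CPM in untreated, LPS and octanal cells. It was thus present in untreated cells, with a wide spread between libraries, and low in both treated groups. The Fc receptor gene Fcgr1 was low in all groups, at 1.24 ± 0.80, 1.40 ± 1.19 and 1.09 ± 0.877 CPM. F13a1 was at 125 ± 130, 5.16 ± 3.73 and 10.5 ± 2.40 CPM and Fn1 at 30.4 ± 23.1, 7.16 ± 3.85 and 4.47 ± 2.34 CPM. Ccr2, the chemokine receptor of classical monocytes, was low, with means of 14.6 ± 13.6 CPM (SD, n = 3), 1.48 ± 0.513 and 1.5 ± 1.18 in untreated, LPS and octanal cells. Markers of other cells were also present: the summed level of 15 neutrophil markers was 14400 to 28100 CPM in untreated, 1930 to 2370 in LPS and 6160 to 13900 in octanal libraries, and that of 12 T cell markers 201 to 1260, 2340 to 2900 and 1350 to 2060 CPM. No gene of these lists was at 0 in every library. The neutrophil sum was highest in untreated and lowest in LPS libraries, as the CD300 means were, and the T cell sum was the reverse. The part of both sums in the results below was not tested. In bulk RNA, fewer cells of a type and less RNA per cell cannot be told apart.

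LPS-treated cells held less CD300 RNA than untreated cells. Of the 6 members, 5 fell (edgeR, adjusted p under 0.05) against 17.6% of the 15447 genes tested, and the same 5 did not overlap between groups, with every LPS library below every untreated library, against 24.8% of genes. The median log2 fold change was -1.55 over the 6 members and 0.01 over all genes. The inhibitory Cd300lf and the activating Cd300lb and Cd300c2 fell by 4.0 to 5.27-fold, and Cd300a and Cd300ld by 2.11 and 2.14-fold.

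Among the inhibitory receptors, Cd300lf was at 186, 179.7 and 220 CPM in the untreated libraries and at 35.3, 40.9 and 34.9 CPM in the LPS libraries. The 3 LPS values lay close together, far below the lowest untreated value. Its log2 fold change was -2.40 ± 0.222 (SE, n = 3 per group, adjusted p = 6.3e-04), which left 19.0% of the untreated mean. Cd300a was at 333, 216 and 383 CPM in untreated and at 99.3, 171 and 172 CPM in LPS libraries. Its groups did not overlap, but untreated replicate 2 stood close to LPS replicates 2 and 3 when set beside the other untreated libraries. Cd300a fell by 1.08 ± 0.308 on the log2 scale (adjusted p = 0.028). This call was lost when any 1 of 5 libraries was left out (untreated replicate 1 or 3, or LPS replicate 1, 2 or 3), with adjusted p between 0.053 and 0.095 and log2 fold changes of -1.24 to -0.88.

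Among the activating receptors, Cd300lb was at 310, 218 and 327 CPM in untreated and at 46.2, 74.7 and 45.5 CPM in LPS libraries. LPS replicate 2 was the highest of its group, yet the groups were apart by a wide margin. The log2 fold change of Cd300lb was -2.36 ± 0.259 (adjusted p = 9.5e-04). Cd300c2, whose product pairs with DAP12 and the Fc receptor gamma chain, was at 133, 83.7 and 163 CPM in untreated and at 23.4, 41.4 and 30.1 CPM in LPS libraries. The lowest untreated value again came from replicate 2 and was above all LPS values. The change of Cd300c2 was -2.0 ± 0.288 (adjusted p = 0.0021), which left 25.0% of the untreated mean. Cd300ld was the least abundant of the 5, at 29.7, 24.2 and 40.9 CPM in untreated and at 9.26, 17.9 and 17.2 CPM in LPS libraries. It fell by 1.10 ± 0.299 on the log2 scale (adjusted p = 0.023), and the call was lost without untreated replicate 3 (adjusted p = 0.077) or without LPS replicate 1 (adjusted p = 0.071). The calls of Cd300lf, Cd300lb and Cd300c2 held in all 18 alternative analyses.

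Cd300lg, the endothelial member, was close to absent, with 17, 9 and 8 counts in untreated, 0, 14 and 4 in LPS and 5, 4 and 12 in octanal libraries. The 3 groups overlapped, and its log2 fold change with LPS was -0.95 ± 1.02 (adjusted p = 0.50). It was -2.63 without LPS replicate 2, -0.36 without LPS replicate 1 and -2.10 by limma-voom, none of them called, so that no difference was detectable at this depth. Endothelial markers ranged widely. Vwf, the von Willebrand factor gene, had means of 123 ± 36.9, 42.9 ± 17.8 and 73.1 ± 29.7 CPM in untreated, LPS and octanal cells, and Pecam1, which leukocytes express as well, had 35.8 ± 10.4, 68.5 ± 7.15 and 55.4 ± 14.2 CPM. Cdh5, the cadherin of endothelial junctions, had means of 1.76 ± 1.70, 0.735 ± 0.355 and 0.362 ± 0.237 CPM in untreated, LPS and octanal cells. The summed level of 12 endothelial markers was 187 to 234, 126 to 142 and 118 to 171 CPM, much of it from Vwf and Pecam1. A sum of 12 genes cannot be set directly against the level of the single gene Cd300lg.

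**Figure D1:**
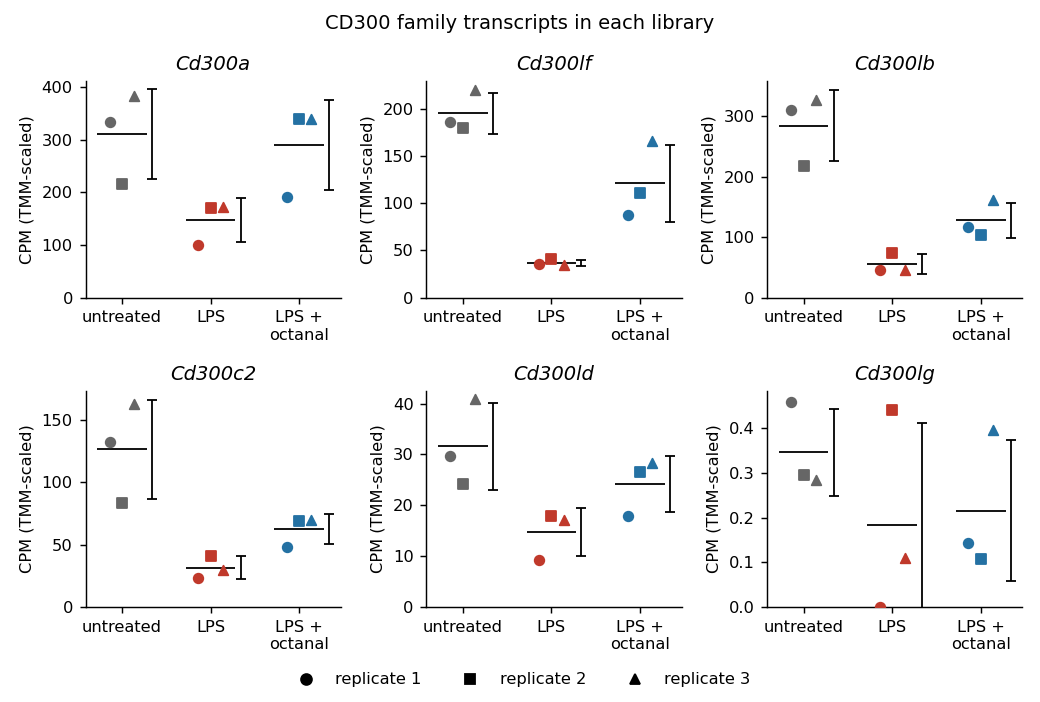
Level of each CD300 gene in CPM (linear axis from 0, one scale per gene) in the 3 libraries of each group. Marker shape gives the replicate number, the horizontal line the group mean and the bar at its side ± 1 SD, drawn down to 0 at the lowest. For Cd300lf, Cd300lb and Cd300c2 the 3 groups did not overlap, with octanal between the others, while Cd300lg stayed below 0.5 CPM in every library.

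The mean level of every CD300 member was higher in cells given octanal after LPS than in cells given LPS alone, but no member passed the test. By edgeR, 0 of 15447 genes (0%) had an adjusted p under 0.05 in this comparison, where the lowest adjusted p of any gene was 0.051 and 3450 genes had an unadjusted p under 0.05. All 6 members had a positive log2 fold change, as did 45.4% of all genes, with a median of 0.98 against -0.05 over all genes. That of Cd300lg rests on few counts and turned to -0.33 without LPS replicate 1 and -0.49 without octanal replicate 3. Of the 6, 5 had an unadjusted p under 0.05 in the higher direction, against 13.6% of genes. In CPM, 5 of the 6 did not overlap, with all octanal libraries above all LPS libraries, against 18.3% of genes. This comparison uses the same LPS libraries as the one above, so the 2 sets of values are not independent of each other.

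Cd300lf had the largest difference of the members, with 87.0, 110 and 166 CPM in octanal libraries against 34.9 to 40.9 CPM in LPS libraries. Every octanal library held more than double the highest LPS value, and the octanal libraries differed more among themselves than the LPS libraries did. The log2 fold change was 1.71 ± 0.217 (adjusted p = 0.051), a 3.27-fold higher level, and the adjusted p ran from 1.8e-09 to 0.22 over 18 alternatives, 7 of which called the gene. Cd300a was at 190, 339 and 339 CPM with octanal. Octanal replicate 1 was close to the 2 higher LPS libraries and the other two were near the untreated values. Its log2 fold change was 0.98 ± 0.307 (adjusted p = 0.12).

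Cd300lb was at 118, 104 and 161 CPM with octanal, above all LPS libraries (45.5 to 74.7 CPM) and below all untreated ones. The log2 fold change was 1.20 ± 0.251 (adjusted p = 0.058), and 5 of the 18 alternatives called it. Cd300c2 was at 48.5, 69.3 and 69.8 CPM, and the lowest of these was near the highest LPS value of 41.4 CPM. Its log2 fold change was 0.99 ± 0.281 (adjusted p = 0.10). Cd300ld was at 17.9, 26.5 and 28.3 CPM, with a log2 fold change of 0.71 ± 0.297 (adjusted p = 0.21). For this gene octanal replicate 1 exceeded LPS replicate 2 only in the second decimal (17.90 against 17.88 CPM), and on the deposited FPKM scale, which divides by length and library size, the 2 groups overlapped. Cd300lg gave 0.25 ± 1.04 (adjusted p = 0.91).

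DESeq2's Wald test on the same genes called 4 of the 6 members higher with octanal (Cd300a, Cd300lf, Cd300lb and Cd300c2), where 9.02% of genes were called higher. The edgeR fit to the 6 libraries of these groups alone called 3 (Cd300lf, Cd300lb and Cd300c2), where 6.35% of genes were called higher.

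**Figure D2:**
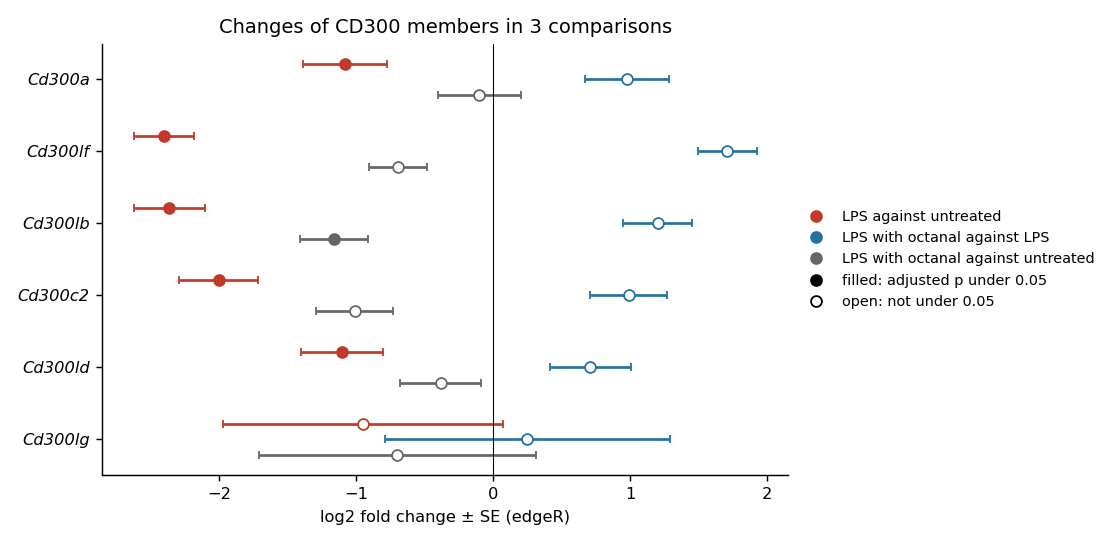
Log2 fold change of each member with its standard error from the edgeR fit, for LPS against untreated, LPS with octanal against LPS, and LPS with octanal against untreated. Filled points have an adjusted p under 0.05: 5 members for LPS, none for octanal against LPS, and Cd300lb for octanal against untreated.

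Between octanal and untreated cells, a single member passed the test. Cd300lb fell by 1.16 ± 0.25 on the log2 scale (edgeR, adjusted p = 0.027) and was the 1 member of 6 called lower, where 6.03% of genes were. That call was lost without untreated replicate 1 or 3, without octanal replicate 1 or 2, in a fit of the 6 libraries of both groups, and with a replicate block, where the adjusted p was 0.058. Cd300c2 had a log2 fold change of -1.01 ± 0.28 (adjusted p = 0.057) and Cd300lf of -0.69 ± 0.211 (adjusted p = 0.077). For these 3 genes the libraries of the 2 groups did not overlap, as for 16.3% of genes. Cd300ld gave -0.38 ± 0.295 (adjusted p = 0.43) and Cd300a -0.10 ± 0.304 (adjusted p = 0.86), and their groups overlapped. As a share of the untreated mean, the octanal level was 93.3% for Cd300a, 76.6% for Cd300ld, 62.1% for Cd300lf, 49.5% for Cd300c2 and 44.9% for Cd300lb. Cd300lg gave -0.70 ± 1.01 (adjusted p = 0.69).

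All 6 members had their highest mean in untreated and their lowest in LPS cells, an order that 25.9% of genes showed. In 3 of the 6 (Cd300lf, Cd300lb and Cd300c2) every library kept to that order, with no overlap between any of the groups, against 4.71% of genes.

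Levels of different genes were compared per length, on the deposited FPKM scale. For Cd300lf that scale corresponds to a length well below its 5149 exon bases. In untreated replicate 1, Cd300lf had 186 CPM and 90.5 FPKM. Cd300a, with 4738 exon bases, had 333 CPM and 65.2 FPKM in that library. The rank of Cd300lf below holds only for the deposited FPKM, and at its exon length it would be lower. In untreated cells Cd300lf (94.8 ± 5.89 FPKM), Cd300lb (93.2 ± 15.6) and Cd300c2 (92.8 ± 25.5) were within their spread of each other, and each of them was the highest member in 1 library. Cd300a followed at 60.5 ± 14.2 FPKM, Cd300ld at 10.8 ± 2.40 and Cd300lg at 0.143 FPKM. In LPS cells Cd300a was the highest member in all 3 libraries, at 31.0 ± 8.56 FPKM, with Cd300c2 at 25.1 ± 6.94, Cd300lf at 19.5 ± 1.52 and Cd300lb at 19.3 ± 5.45 FPKM. The means of these neighbours differed by less than their spread, as did those of Cd300lf (59.5 ± 18.4 FPKM) and Cd300a (56.9 ± 15.7) with octanal, where Cd300c2 (46.6 ± 8.13) and Cd300lb (42.1 ± 9.04) came next. Cd300ld stood below the 4 leading members and Cd300lg last in all 9 libraries.

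The summed level of the 6 members was 366, 286 and 404 FPKM in untreated, 78.4, 121 and 101 in LPS and 166, 217 and 258 in octanal libraries. The groups did not overlap, with octanal between the other two. The inhibitory pair, Cd300a and Cd300lf, made up 42.5, 47.8 and 42.8% of that sum in untreated, 51.0, 46.7 and 54.2% in LPS and 49.9, 55.9 and 56.3% in octanal libraries. All 3 octanal values were above all untreated values, while LPS replicate 2 lay below untreated replicate 2. The sums and these shares depend on the short length behind the deposited FPKM of Cd300lf.

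**Figure D3:**
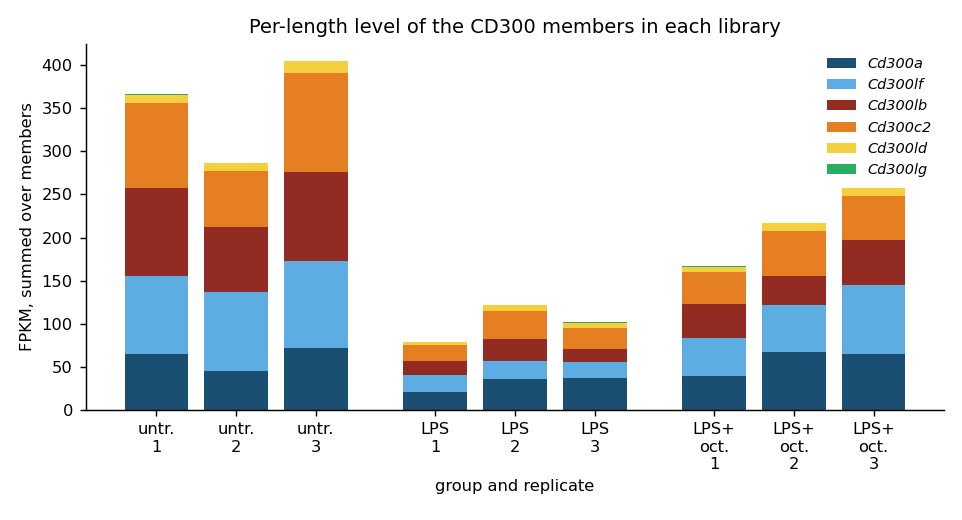
FPKM of the 6 members stacked for each of the 9 libraries, with the axis starting at 0. The sums run from 286 to 404 in untreated, 78.4 to 121 in LPS and 166 to 258 in octanal libraries, and Cd300a, at the foot of each bar, is the largest segment in the 3 LPS libraries.

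Ratios of counts within a library do not depend on how libraries are scaled. The 5 expressed members give 10 pairs, each tested in 3 comparisons by an exact two-sided permutation test. With 3 libraries against 3 no p can be below 0.1, so none of these 30 tests can pass 0.05. Of the 10 pairs, 7 did not overlap between LPS and untreated, 2 between octanal and LPS and 5 between octanal and untreated. The 10 pairs reuse the same 5 genes and are not separate observations. The share among pairs of other genes was not determined, so these counts describe these pairs only. The 2 pairs apart between octanal and LPS were Cd300lf to Cd300c2 (difference of means 0.66) and Cd300lf to Cd300ld (0.92), both higher with octanal. The log2 ratio of Cd300a to Cd300lb was 0.10, -0.01 and 0.23 in untreated, 1.10, 1.19 and 1.92 in LPS and 0.69, 1.70 and 1.07 in octanal libraries. It was thus higher in every treated library than in any untreated one, and the LPS and octanal values overlapped (difference of means -0.25, exact p = 0.5). The log2 ratio of Cd300a to Cd300lf was 0.84, 0.26 and 0.80 in untreated and 1.49, 2.06 and 2.30 in LPS libraries (difference 1.32, exact p = 0.1, the smallest possible). Cd300a to Cd300ld behaved otherwise, at 3.49, 3.16 and 3.22 in untreated and 3.42, 3.26 and 3.32 in LPS libraries, which overlapped (difference 0.04, exact p = 0.7). Cd300lf to Cd300lb also overlapped between untreated and LPS (difference -0.02, exact p = 1).

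**Figure D4:**
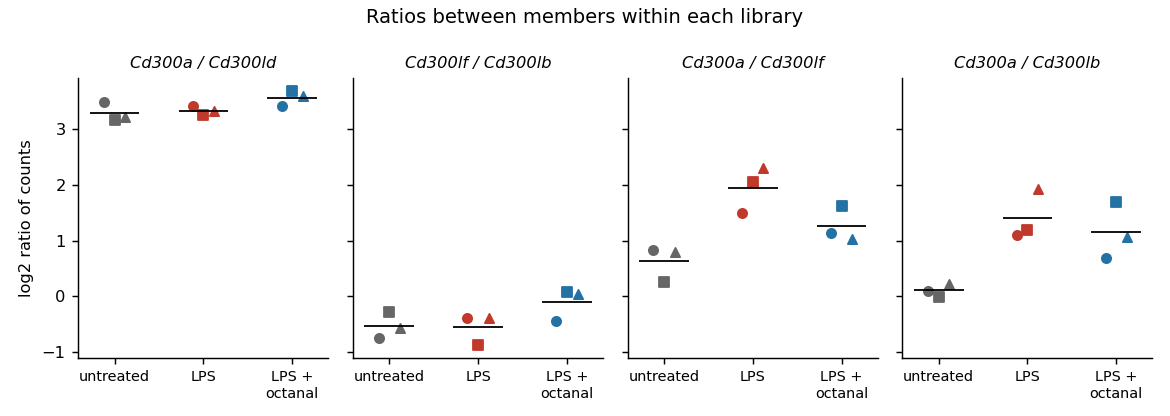
Log2 ratio of the counts of 2 members within each library, for 4 pairs, by group; marker shape gives the replicate number and the line the group mean. The ratios of Cd300a to Cd300lf and to Cd300lb are higher in every LPS library than in any untreated one, while those of Cd300a to Cd300ld and Cd300lf to Cd300lb overlap between these groups.

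The pattern of each member over the 9 libraries was compared with that of 8704 other genes of at least 10 CPM (8705 for Cd300lg), by the root mean square difference of centred log2 CPM; the values describe likeness and carry no test. Among the members themselves Cd300a and Cd300ld were closest, at 0.162, with 11 genes nearer to either. Cd300lb and Cd300c2 differed by 0.272 and Cd300lf and Cd300lb by 0.299, while Cd300a and Cd300lb differed by 0.648. Nearest to Cd300a were March8, a ubiquitin ligase (0.110), Hexa, a subunit of lysosomal hexosaminidase (0.133), and Sirpa, the inhibitory receptor for CD47 (0.141). For Cd300lf they were the exchange factor Rasgrp4 (0.158), the tyrosine kinase Fes (0.212) and S100a8, a calprotectin subunit that is also among the neutrophil markers (0.224). Cd300lb was nearest to Ndst1, an enzyme of heparan sulfate synthesis (0.108), Alox5ap, which serves leukotriene synthesis (0.146), and Plekhg3 (0.168). Cd300c2 was nearest to the hexokinase Hk3 (0.154) and to the exchange factors Fgd4 (0.154) and Iqsec1 (0.164), and Cd300ld to the tetraspanin Cd63 (0.130), the syntenin gene Sdcbp (0.132) and the nuclear receptor Rxra (0.134). The nearest genes to Cd300lg, Fam89b (0.486), Scd2 (0.501) and Hba-a1 (0.502), were much farther from it, and its level rests on few counts.

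Of the other genes of the CD300 cluster, 6 were in the table, and 3 of the 6 fell with LPS, where 17.6% of genes did. These were Cd300ld2 (1.91 ± 0.584 CPM in untreated and 0.295 ± 0.124 in LPS libraries, adjusted p = 0.0080), Cd300ld3 (7.25 ± 2.11 and 2.57 ± 1.09 CPM, adjusted p = 0.022) and Cd300ld5 (4.82 ± 1.54 and 0.980 ± 0.419 CPM, adjusted p = 0.0074). Cd300ld4 held 9.16 ± 1.61 and 4.44 ± 2.09 CPM in these groups (adjusted p = 0.057). These 4 values are uncertain because the transcripts are near copies of each other: of their 50-base stretches, 31.0% in Cd300ld2, 82.1% in Cd300ld3, 93.8% in Cd300ld4 and 100% in Cd300ld5 also occur in another gene. The same share was 0% for Cd300lb and Cd300lg, 2.29% for Cd300lf, 3.18% for Cd300a, 3.89% for Cd300ld and 7.16% for Cd300c2, whose shared stretches are all in Cd300a. Cd300e, an activating monocyte receptor, had 1.81 ± 0.978 CPM without and 3.19 ± 1.03 CPM with LPS (log2 fold change 0.81, adjusted p = 0.28), and Cd300c gave -1.56 (adjusted p = 0.23). The lowest edgeR adjusted p of the 6 was 0.24 between octanal and LPS and 0.058 between octanal and untreated.

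The genes through which the receptors signal were described from lists, of which no gene was called by edgeR between octanal and LPS, as no gene was at all. On the activating side, 14 of 23 ITAM adaptors and kinases fell with LPS and 5 rose, where 17.6% of all genes fell and 15.2% rose, with a median log2 fold change of -0.84. Tyrobp, which encodes DAP12, the adaptor of Cd300lb and Cd300c2, had means of 468 ± 63.7, 163 ± 74.2 and 301 ± 57.2 CPM in untreated, LPS and octanal cells (LPS against untreated -1.52, adjusted p = 0.012). Fcer1g, the Fc receptor gamma chain used by Cd300ld, was at 452 ± 130 CPM, 230 ± 71.9 and 520 ± 139 (-0.97, adjusted p = 0.040). Lat2, a linker of ITAM signalling, had the lowest p of the list, with 146 ± 57.5 CPM without and 16.6 ± 2.31 CPM with LPS (-3.13, adjusted p = 6.2e-04). On the inhibitory side, 3 of 7 phosphatases and related enzymes fell and 0 rose, with a median of -0.13. Inpp5d, the lipid phosphatase SHIP1, fell by 1.13 (adjusted p = 6.2e-04) and Ptpn6, which encodes SHP-1, by 0.73 (adjusted p = 0.036) on the log2 scale, and Inppl1 by 0.26 (adjusted p = 0.037). Ptpn6 was at 510 ± 115, 307 ± 44.1 and 617 ± 145 CPM in the 3 groups. Ptpn11, which encodes SHP-2, was not called with LPS (edgeR, log2 fold change -0.07, adjusted p = 0.51). Between octanal and LPS the list medians were 0.69 and 0.30 for the activating and the inhibitory side.

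Other paired immunoglobulin-like receptors of myeloid cells were set beside the CD300 members. Of 26 tested, 14 fell with LPS and 3 rose, where 17.6% of all genes fell and 15.2% rose, with a median log2 fold change of -1.26, and the median was 1.08 between octanal and LPS. Cd200r1, an inhibitory receptor, fell from 107 ± 27.3 to 26.5 ± 1.30 CPM (adjusted p = 6.2e-04) and Milr1 from 48.6 ± 14 to 12.7 ± 1.11 CPM (adjusted p = 0.0012). Pilra, also inhibitory, went the other way, from 49.6 ± 10.2 to 80.3 ± 13.8 CPM (log2 fold change 0.69, adjusted p = 0.036). In the Toll-like receptor 4 list, 5 of 10 genes fell and 0 rose, beside the same 17.6% and 15.2% of all genes, with a median of -0.44. Tlr4 itself was at 82.0 ± 22.9, 28.1 ± 4.05 and 67.9 ± 19.9 CPM in untreated, LPS and octanal libraries (LPS against untreated -1.54, adjusted p = 0.0040), and its partner Cd14 at 533 ± 159, 712 ± 70.1 and 1250 ± 188 CPM (0.42, adjusted p = 0.17).

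**Figure D5:**
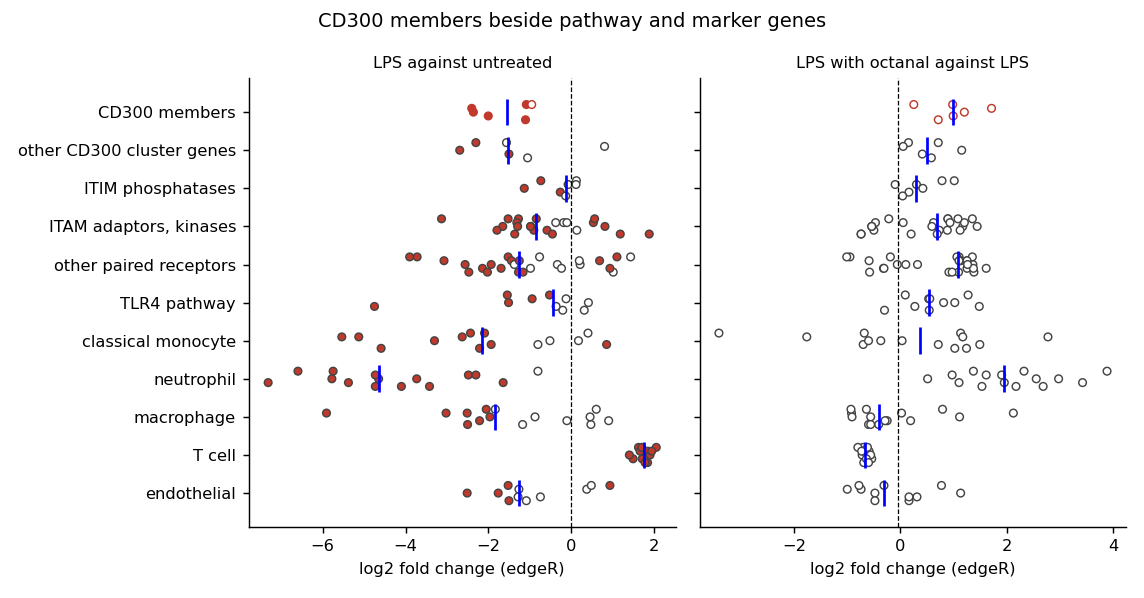
Log2 fold change of every tested gene of each list shown, for LPS against untreated and for octanal against LPS. Each gene is 1 point, filled where the adjusted p was under 0.05, and the CD300 members are in the top row. The lists of non-classical monocytes, dendritic cells, eosinophils, basophils and mast cells, NK cells, B cells and fibroblasts are not drawn. The blue bar is the list's median and the dashed line the median of all genes. The CD300 medians are -1.55 and 0.98, the neutrophil medians -4.65 and 1.95 and the T cell medians 1.76 and -0.67.

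Marker genes of the cells the samples could hold moved as well, and their counts are to be read against the 17.6% of all genes that fell with LPS and the 15.2% that rose. With LPS, 14 of 15 neutrophil markers fell (median -4.65), 9 of 14 classical monocyte markers fell and 1 rose (-2.15), 7 of 15 macrophage markers fell (-1.83) and all 12 T cell markers rose (1.76). Between octanal and LPS the medians were 1.95, 0.37, -0.41 and -0.67, with no gene called. The summed level of classical monocyte markers was 7800 to 17700 CPM in untreated, 2510 to 3540 in LPS and 5310 to 8110 in octanal libraries; the untreated and octanal ranges overlapped. The sums of classical monocyte and of neutrophil markers were lowest in LPS libraries, as was the summed CD300 level. Of the remaining lists, the genes called higher and lower with LPS numbered 2 and 3 of 11 for non-classical monocytes, 1 and 1 of 11 for dendritic cells, 0 and 5 of 9 for eosinophils, basophils and mast cells, 3 and 0 of 12 for NK cells, 1 and 0 of 10 for B cells, 1 and 4 of 11 for endothelial cells and 1 and 1 of 7 for fibroblasts and stroma, several of which are no more than the share of all genes. How much of the CD300 differences goes with these markers was not tested.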

How the data were processed

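The authors deposited 1 table with a whole-number count per gene and library, without normalization, and an FPKM value (fragment counts scaled per length and library), per the file headers. Per the submitters' processing notes, the genome is GRCm38; the aligner, counter and strand setting are not given in the sources used, so reads of near-identical genes may be split between them. Lines without values (10) were left out. Counts were analysed with edgeR 4.0.16 in R 4.3.3: TMM factors (0.9232 to 1.066), filterByExpr (15447 genes kept) and the quasi-likelihood test in 1 fit of all 9 libraries, with Benjamini-Hochberg adjustment over all genes tested. Standard errors are the fold change divided by the square root of the F statistic. CPM use TMM-scaled totals; ± is the SE beside a log2 fold change and otherwise the SD of 3 libraries. Alternatives used DESeq2 1.42.0, limma 3.58.1, other filters, samples and scalings, and 1 library left out at a time. Positions come from GENCODE M21 and promoters from RefSeq.

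The named genes are all members and up to 4 genes of lowest p per list. The 3 genes nearest to each member in centred log2 CPM (prior count 3, predicted genes left out) are also named. For their roles, Cdh5, Tyrobp, Fcer1g, Ptpn11, Csf1r, Lyz2, Ccr2, Ly6c2, Fcgr1 and Fn1 were added after their values were seen. So were the cluster genes Cd300c and Cd300e, and Cd14 in the LPS comparison. Members and lists were chosen with earlier results of these data known.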

Additional observations from a re-analysis of the deposited data

How the results depend on the processing

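All 18 alternatives kept the sign of every expressed member between LPS and untreated and between octanal and LPS. Percentages of genes below are of those tested in each setting. With octanal against LPS, 0 genes and 0 members were called by edgeR. Without a filter 279 genes (1.29%) and 2 members were called, and with at least 10 CPM in 3 libraries 323 (3.44%) and 2. DESeq2's Wald test called 1800 genes (11.7%) and 4 members, and the fit to the 6 libraries of both groups 1380 (9.27%) and 3. With octanal against untreated, DESeq2 called 2798 genes (18.1%) and 3 members and the 6 libraries 404 (2.73%) and 0. In this comparison 2 members were called with the CPM filter (12.4% of genes) and 3 by limma on log2(FPKM + 1) (8.77%). Leaving out 1 library gave 2387 to 5658 genes (15.1 to 35.8%) and 3 to 5 members for LPS against untreated. Without LPS replicates 1, 2 and 3 the genes numbered 2387, 3284 and 2926. For octanal against LPS, 0 to 584 genes (0 to 3.68%) and 0 to 2 members were called, with 584 without octanal replicate 1. For octanal against untreated, 298 to 2137 genes (1.88 to 13.5%) and 0 to 2 members were called, with 298 without octanal replicate 2. Signs turned only for values that were not called: Cd300lg between octanal and LPS (range -0.49 to 1.94; -0.33 without LPS replicate 1, -0.49 without octanal replicate 3) and Cd300a between octanal and untreated (range -0.31 to 0.14; 0.11 without untreated replicate 3, 0.14 without octanal replicate 1). Same-numbered libraries deviated together (correlation over 0.1) in 1 of 9 pairs. Only 1 of 9 libraries correlated best with its own number, so the numbers were not taken as pairs. A replicate block gave 4257, 0 and 923 called genes (27.6, 0 and 5.98%) and 5, 0 and 0 members in the 3 comparisons. The FPKM scale moved the median of all genes by 0.11 for LPS against untreated and raised the share of calls that were higher from 46.4% to between 58.2% and 58.9%. The cause of these shifts was not tested. With 17 or fewer counts per library, depth limits Cd300lg.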
